A study of Homo sapiens with 6 samples.

Results

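The genes described here encode the enzymes that add methyl groups to histone lysines, take them off again, or take acetyl groups off. They were the protein-coding rows of the gene table whose symbol begins with KDM, KMT, SETD, HDAC or SIRT followed by a digit. The table gives each gene a list of the classes of its transcripts, and a row was taken as protein-coding when that class was in the list. This gave 55 of the 58825 genes of the table. Of the 67 symbols that fit the name pattern, 12 were non-coding genes or pseudogenes and were left out, and only 4 of the 55 had protein-coding transcripts alone.

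The 6 libraries came from PC9 cells, an established line of human lung adenocarcinoma that depends on a mutant EGF receptor. All cells received the EGF receptor inhibitor gefitinib at 100 nM for 24 h. Per the labels, 3 libraries came from cells overexpressing FOXM1 with the A allele of the variant rs3742076 and 3 from cells overexpressing FOXM1 with the G allele, called A and G below. FOXM1 is a forkhead transcription factor of the late cell cycle. Neither the vector nor the number of clones is stated in the labels, cells without FOXM1 overexpression or without gefitinib were not analysed here, and the labels do not say whether replicates were separate cultures, so that p-values speak for the scatter of these 6 libraries alone, part of which may be technical.

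Methylation of histone lysines acts as a code read by other proteins. KMT2A to KMT2D and the SETD1 enzymes place methyl groups on lysine 4 of histone H3 (H3K4) at promoters and enhancers. SETD2 places trimethylation on lysine 36 of H3 (H3K36) behind elongating RNA polymerase, and the KMT5 enzymes methylate lysine 20 of histone H4 (H4K20). The KDM enzymes reverse such marks: KDM1A and KDM1B use flavin, and KDM2 to KDM8 carry a JmjC domain that uses iron, oxygen and 2-oxoglutarate. The zinc-dependent HDAC enzymes and the NAD-dependent sirtuins remove acetyl groups from histones and from many other proteins. In PC9 cells, KDM5A and histone deacetylases are known for their part in the small population that survives EGF receptor inhibitors in a drug-tolerant state.

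The promoters of KMT2C and KDM3A are shown because these genes had the smallest unadjusted p of the methyltransferases and of the demethylases. KDM3A is itself a known target of the hypoxia-inducible factors, whose binding core is ACGTG or GCGTG. Each sequence is the 250 bases before the RefSeq start of the gene (GRCh38.p14), read along the gene's own strand, with the GCGTG core, or CACGC where it lies on the other strand, in capitals.
KDM3A, chr2:86441121-86441370, + strand: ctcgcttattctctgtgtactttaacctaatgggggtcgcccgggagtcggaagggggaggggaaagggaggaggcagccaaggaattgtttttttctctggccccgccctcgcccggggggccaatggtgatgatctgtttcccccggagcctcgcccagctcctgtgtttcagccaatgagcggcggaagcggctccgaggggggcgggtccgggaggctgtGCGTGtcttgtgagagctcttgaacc
KMT2C, chr7:152436004-152436253, - strand: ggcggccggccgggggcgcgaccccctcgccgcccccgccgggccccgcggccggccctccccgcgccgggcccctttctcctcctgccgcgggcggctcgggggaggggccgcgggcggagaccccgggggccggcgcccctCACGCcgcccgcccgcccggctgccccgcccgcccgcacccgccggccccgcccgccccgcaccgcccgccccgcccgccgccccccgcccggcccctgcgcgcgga
The core began 26 bases before the start of KDM3A and 107 bases before that of KMT2C. The G and C content was 62.4% and 92.0%. Over windows from 250 bases before to 50 bases after a start, searched on both strands, GCGTG was found in 35 of the 58 windows of the 44 tested enzyme genes with a window (60.3%), against 36.5% of 35116 windows in the table. ACGTG was found in 20.7% and 21.4%. The forkhead motif GTAAACA was in 1 window, that of KDM2B (1.72%, against 3.42% of all windows), and the letters TTTGAA, the core of the cell cycle homology region, were in 2, those of KDM2A and SIRT4 (3.45%, against 15.2%). The 35116 windows were not limited to tested genes and were not matched for G and C content, so the sets compared are unlike. These are matches of letters and say nothing of binding.

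Values are FPKM, fragments per kilobase scaled to the fragments of the library. Between 12451 and 12858 genes reached 1 FPKM in each library, and the FPKM summed over genes was 270216 to 277592 in A and 253702 to 255266 in G, so the groups did not overlap in that sum. FOXM1 itself was at 25.5, 10.5 and 10.1 FPKM in A replicates 1 to 3 and at 14.6, 14.3 and 14.0 FPKM in G, and A replicate 1 stood apart from the other A libraries. Of 9 markers of lung and airway epithelium, 7 reached 1 FPKM, with a summed level of 2862 to 3402 FPKM in A and 2698 to 2951 FPKM in G, while NKX2-1 and SFTPB did not. The summed levels of 5 leukocyte, 5 fibroblast and 4 endothelial markers stayed between 0.200 and 2.39 FPKM in every library, with the fibroblast gene DCN at the value the table uses for no estimate.

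Of the 55 genes, 47 reached 1 FPKM in at least 3 libraries and were tested, 43 of them reaching it in all 6. No gene entered the test through 1 group alone. The untested 8 were HDAC4 (mean 0.77 FPKM over 6 libraries), HDAC9 (0.41), KDM4D (0.37), SETD9 (0.30) and KDM8 (0.16), and KDM4E, KDM4F and KDM5D, which had no estimate in any library. Among the tested genes HDAC1, the catalytic subunit of the SIN3, NuRD and CoREST complexes, had the highest mean level at 46.7 FPKM. KDM1A, the H3K4 demethylase of CoREST, followed at 41.8 FPKM, and the library ranges of the pair overlapped (40.8 to 52.8 and 41.1 to 43.0 FPKM). Next came KDM2A at 26.1, KDM3B at 22.6, HDAC5 at 22.0 and HDAC3 at 16.5 FPKM. The lowest tested genes were HDAC8 at 1.00, SETD4 at 1.14 and SETD6 at 1.298 FPKM.

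The order of levels depends on the length by which fragments were divided. In the 52 genes with an estimate, the gene level and the transcript levels, each weighted by transcript length and summed, stood in 1 ratio over the libraries within 1%, so the gene level is fragments per kilobase of all annotated exons together. For HDAC8, the deacetylase of the cohesin subunit SMC3, the joined exons are 13.05 times as long as its main transcript, and for HDAC2 7.36 times. Ranked by summed transcript FPKM, HDAC8 moved from the lowest place, 47, to 25, HDAC2 from 23 to 15 and KDM5B from 17 to 6. HDAC1, KDM1A and KDM2A kept the first 3 places. The divisor is the same in all libraries, so it leaves the ratio of G to A within a gene as it is, while the log2 change on FPKM + 1 and the filter at 1 FPKM do depend on it for genes with low values such as HDAC8.

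**Figure D1:**
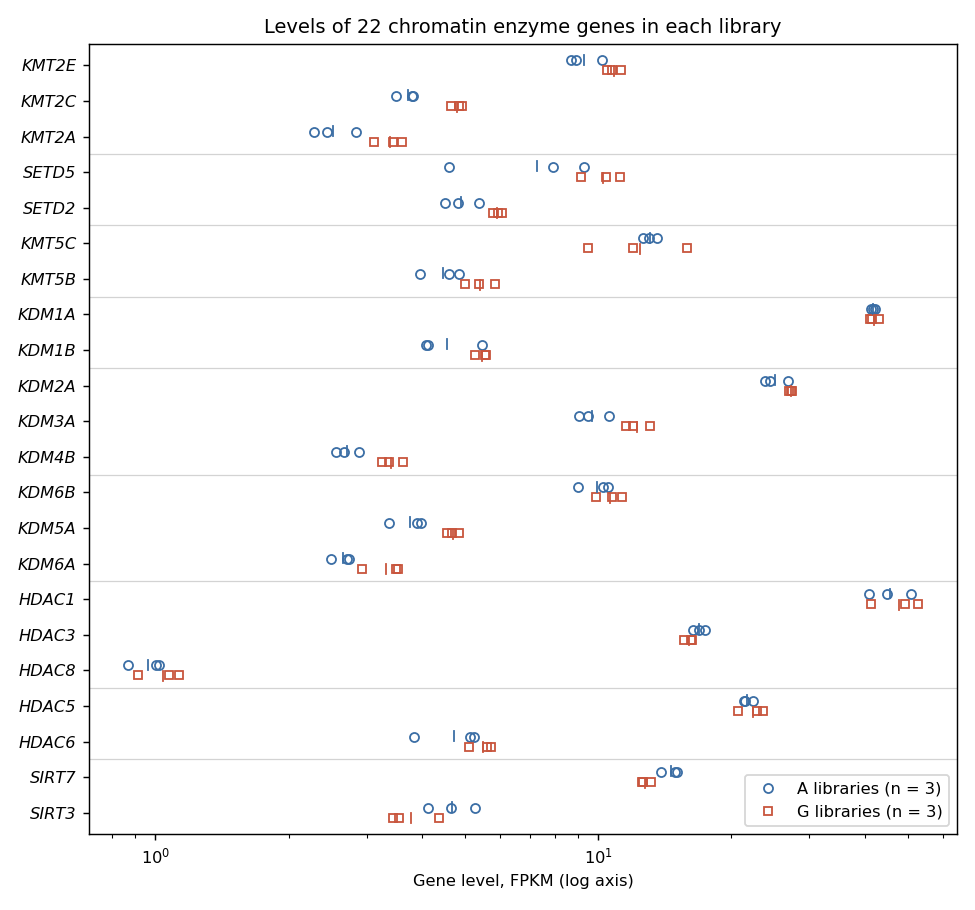
Gene level in FPKM (log axis) of 22 enzyme genes in each library, grouped by role; circles are the 3 A libraries, squares the 3 G libraries and short bars the group means. HDAC1 and KDM1A stand highest with overlapping groups, the 3 G libraries lie above the 3 A libraries in KMT2C and KDM3A, and they lie below them in SIRT7.

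None of the 47 genes passed an adjusted p of 0.05 in the comparison of G with A by limma, where 14 of 12787 genes tested (0.109%) passed, 4 higher and 10 lower in G (7 and 8 with equal library sums, 1 and 8 with median-ratio factors). The smallest adjusted p among the enzymes was 0.165, for KMT2C. At an unadjusted p under 0.05, 13 of the 47 (27.7%) stood out, against 17.3% of all tested genes. Of these, 12 (25.5%) were higher and 1 (2.13%) lower in G, against 10.5% and 6.82%. The 3 G libraries lay above the 3 A libraries in 15 of the enzymes (31.9%) and below them in 2 (4.26%), SIRT7 and HDAC3, against 15.4% and 9.57% of all tested genes. The log2 change, taken on FPKM + 1 as G minus A, was positive in 33 of 47 (70.2%), against 55.1% of all tested genes, and its median was 0.09 against 0.02. With libraries scaled to equal sums, 42 of 47 were positive and the medians were 0.19 and 0.11. In bulk RNA, fewer cells that express a gene and less of its RNA per cell cannot be told apart.

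The classes differed in these counts. The log2 change was positive in 12 of 16 methyltransferases (median 0.16), in 14 of 15 KDM demethylases (median 0.23), in 5 of 9 HDAC genes (median 0.02) and in 2 of 7 sirtuins (median -0.11). No gene of any class was called, and the difference between classes was not tested. Exon length moved with these classes, with medians of 8932 bases for methyltransferases, 9378 for demethylases, 7618 for HDAC genes and 5553 for sirtuins. The median G and C content of their most abundant transcripts was 48.3%, 50.7%, 57.7% and 57.5% in that order. The part of length and base composition in the result was not tested. With the trend over length removed, a setting chosen after the data were seen, 10 of 16 methyltransferases (median 0.07), 12 of 15 demethylases (median 0.07), 2 of 9 HDAC genes (median -0.05) and 1 of 7 sirtuins (median -0.08) were positive. With the trends over length and base composition both removed, also chosen after the data were seen, the HDAC genes were at 5 of 9 (median 0.02). Methyltransferases were then at 11 of 16 (median 0.08), demethylases at 11 of 14 (median 0.08) and sirtuins at 1 of 7 (median -0.07). With equal library sums the counts were 15, 15, 9 and 3.

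**Figure D2:**
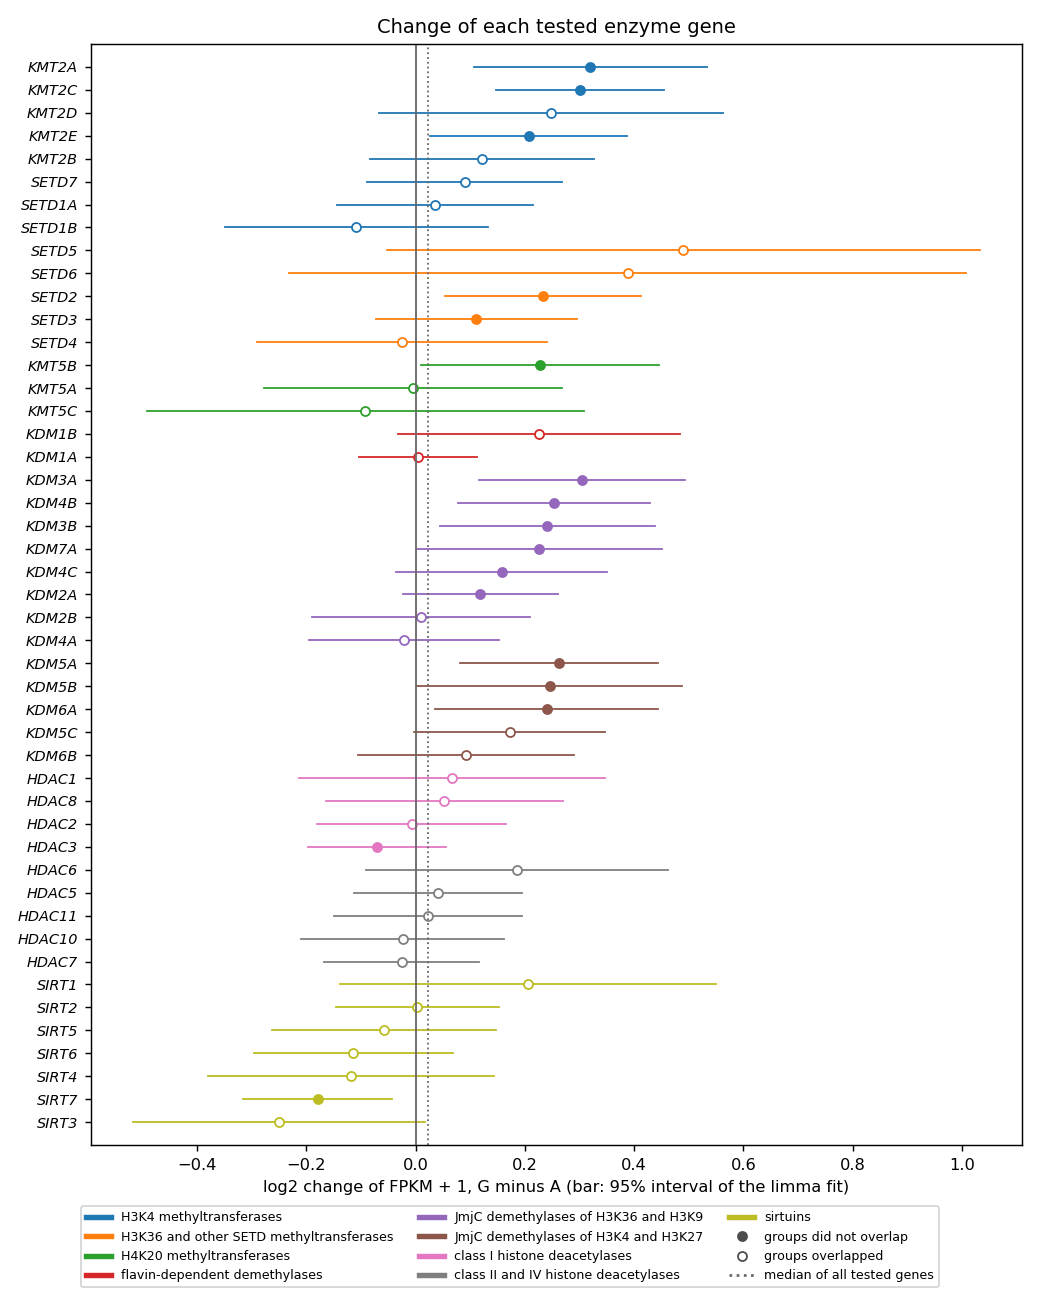
Log2 change of FPKM + 1, G minus A, for the 47 tested enzyme genes, with bars for the 95% interval of the limma fit, colours for roles and filled points where the 3 libraries of G and of A did not overlap. Most JmjC demethylases lie right of the dotted median of all tested genes (0.02), the HDAC genes lie around 0, and 5 of 7 sirtuins lie left of 0; no gene passed the adjusted threshold.

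The list of H3K4 methyltransferases had 8 genes and took in KMT2E by its name, although that protein has no clear methyltransferase activity. Of the 8, 7 were positive in log2 change (median 0.16). At an unadjusted p under 0.05, 3 were higher in G (37.5%, against 10.5% of all tested genes), and none with the length trend removed. The 3 were KMT2C, KMT2A and KMT2E. KMT2C (ENSG00000055609, chromosome 7, 152134922 to 152436005), the catalytic subunit of a complex that monomethylates H3K4 at enhancers, was at 3.80, 3.83 and 3.50 FPKM in A replicates 1 to 3 and at 4.65, 4.92 and 4.84 FPKM in G replicates 1 to 3. All 3 G libraries exceeded all 3 A libraries, and the spread within each group was small. The means were 3.71 ± 0.180 FPKM (SD, n = 3) in A and 4.80 ± 0.142 FPKM (SD, n = 3) in G, a log2 change of 0.30 (SE 0.06, limma adjusted p = 0.165). Transcripts of KMT2C, looked at after their values were seen, did not all share this picture. The most abundant, ENST00000360104, had overlapping groups and a log2 change of -0.02 (limma adjusted p = 0.985). The coding transcript ENST00000424877 was at 5.71 and 6.97 FPKM in G replicates 1 and 2 and had no estimate in A or in G replicate 3.

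KMT2A (ENSG00000118058, chromosome 11, 118436464 to 118526832), the gene rearranged in MLL leukaemia, was at 2.83, 2.28 and 2.44 FPKM in A replicates 1 to 3 and at 3.12, 3.44 and 3.60 FPKM in G replicates 1 to 3. Its groups did not overlap either, and the log2 change was 0.32 (SE 0.09, limma adjusted p = 0.196). KMT2E (ENSG00000005483, chromosome 7, 105014179 to 105114361), a SET domain protein without clear methyltransferase activity and the most abundant gene of the list, was at 10.2, 8.93 and 8.68 FPKM in A replicates 1 to 3 and at 11.3, 10.8 and 10.5 FPKM in G replicates 1 to 3. The highest A library, replicate 1, came close to the lowest G library, and the log2 change was 0.21 (limma adjusted p = 0.247). KMT2D, the partner of KDM6A at enhancers, ranged over 4.32 to 5.92 FPKM in A and 5.29 to 6.85 FPKM in G, and KMT2B, the close relative of KMT2A, over 4.99 to 5.64 FPKM in A and 5.34 to 6.46 FPKM in G. The groups of both overlapped, as did those of SETD1A, SETD1B and SETD7, with log2 changes from -0.11 for SETD1B to 0.25 for KMT2D. SETD1B had the single negative value of the 8, joined by SETD1A with quantile normalization. With the length trend removed, SETD7 (-0.06) and SETD1A (-0.02) were negative too, and the median of the 8 was 0.03.

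Of the 6 other SETD genes 5 were tested, 4 with a positive log2 change. At an unadjusted p under 0.05, 1 was higher in G (20%, against 10.5% of all tested genes). That gene was SETD2 (ENSG00000181555, chromosome 3, 47016429 to 47163967), the enzyme of H3K36 trimethylation, which was at 4.82, 4.50 and 5.38 FPKM in A replicates 1 to 3 and at 6.06, 5.94 and 5.78 FPKM in G replicates 1 to 3. The G libraries were close together and all above A, with a log2 change of 0.23 (SE 0.07, limma adjusted p = 0.215). SETD5 (ENSG00000168137, chromosome 3, 9397615 to 9479240), a SET domain protein mutated in intellectual disability, had the largest log2 change of all 47 genes, 0.49, with a wide interval of -0.05 to 1.03 (limma adjusted p = 0.324). It was at 7.91, 4.60 and 9.28 FPKM in A replicates 1 to 3 and at 9.17, 11.2 and 10.4 FPKM in G replicates 1 to 3. A replicate 2 was far below the rest, and A replicate 3 lay above G replicate 1, so the groups overlapped.

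SETD6, which methylates the NF-kappaB subunit RELA, had a log2 change of 0.39 that rested on G replicate 2, whose level was 2.82 FPKM, while G replicates 1 and 3 were at 0.895 and 1.25 FPKM. In GENCODE release 29, 21.4% of its exon bases lie opposite those of CNOT1, which was at 30.7 FPKM, and the strand setting of the counting is not given in the sources used here. SETD3, which methylates a histidine of actin, ranged over 4.83 to 5.537 FPKM in A and 5.538 to 6.18 FPKM in G, groups that all but touched (log2 change 0.11).

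The 3 H4K20 methyltransferases did not share a direction in the values as deposited, with 1 of 3 positive, whereas all 3 were positive with equal library sums (median 0.09). KMT5B (ENSG00000110066, chromosome 11, 68154863 to 68213828), which places di- and trimethylation, was at 4.60, 3.97 and 4.86 FPKM in A replicates 1 to 3 and at 4.99, 5.85 and 5.38 FPKM in G replicates 1 to 3, with all G libraries above all A libraries. Its log2 change was 0.23 (limma adjusted p = 0.275). KMT5C (ENSG00000133247, chromosome 19, 55339853 to 55348121), which places the same marks at heterochromatin, was at 13.6, 13.0 and 12.7 FPKM in A replicates 1 to 3 and at 12.0, 15.9 and 9.50 FPKM in G replicates 1 to 3. The G libraries lay on both sides of A and the log2 change was -0.09 (limma adjusted p = 0.800), a value that turned positive with libraries scaled to equal sums and without G replicate 3. KMT5A, the monomethyltransferase of mitosis, had a log2 change of -0.0041.

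The flavin-dependent demethylases were KDM1A and KDM1B. KDM1A (ENSG00000004487, chromosome 1, 23019443 to 23083689) was at 41.8, 41.2 and 42.2 FPKM in A replicates 1 to 3 and at 43.0, 41.5 and 41.1 FPKM in G replicates 1 to 3. Its standard error, 0.0446, was the smallest of the 47 genes, and its log2 change was 0.0045 (95% interval -0.10 to 0.11, limma adjusted p = 0.967), negative with median-ratio factors. KDM1B (ENSG00000165097, chromosome 6, 18155329 to 18223861), the oocyte-enriched relative that acts in gene bodies, was at 5.47, 4.09 and 4.14 FPKM in A replicates 1 to 3 and at 5.58, 5.28 and 5.55 FPKM in G replicates 1 to 3. A replicate 1 lay among the G libraries, the other A libraries lay below them, and the log2 change was 0.23 (limma adjusted p = 0.335).

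Among the JmjC demethylases of H3K36 and H3K9, 8 of 12 were tested, 7 with a positive log2 change (median 0.19). At an unadjusted p under 0.05, 4 were higher in G (50%, against 10.5% of all tested genes). All G libraries lay above all A libraries in 6 (75%, against 15.4%). The median exon length of the 8 was 10352 bases. With the length trend removed, none of them was at an unadjusted p under 0.05, and with the trends over length and base composition removed 3 were. KDM3A (ENSG00000115548, chromosome 2, 86440647 to 86492716), which takes mono- and dimethylation off H3K9, was at 10.6, 9.07 and 9.49 FPKM in A replicates 1 to 3 and at 13.1, 11.6 and 12.0 FPKM in G replicates 1 to 3. The groups did not overlap. Its means were 9.71 ± 0.767 FPKM (SD, n = 3) in A and 12.2 ± 0.794 FPKM (SD, n = 3) in G, a log2 change of 0.30 (SE 0.08, limma adjusted p = 0.186). KDM4B (ENSG00000127663, chromosome 19, 4969113 to 5153598), a demethylase of trimethylated H3K9, was at 2.89, 2.67 and 2.56 FPKM in A replicates 1 to 3 and at 3.25, 3.62 and 3.37 FPKM in G replicates 1 to 3. Here too the groups were apart, with a log2 change of 0.25 (SE 0.07, limma adjusted p = 0.203).

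KDM2A (ENSG00000173120, chromosome 11, 67119263 to 67258082), which binds unmethylated CpG islands and demethylates H3K36, was at 26.8, 23.9 and 24.4 FPKM in A replicates 1 to 3 and at 27.3, 27.4 and 26.997 FPKM in G replicates 1 to 3. The G libraries were nearly equal, A replicate 1 lay just below them, and the log2 change was 0.12 (limma adjusted p = 0.355). Its close relative KDM2B, a subunit of a Polycomb repressive complex, had overlapping groups and a log2 change of 0.0093. KDM3B, the abundant relative of KDM3A, ranged over 18.9 to 23.0 FPKM in A and 23.9 to 25.6 FPKM in G. KDM4C, a demethylase of trimethylated H3K9, ranged over 1.35 to 1.61 FPKM in A and 1.67 to 1.82 FPKM in G, and KDM7A, which acts on dimethylated H3K9 and H3K27, over 0.945 to 1.304 FPKM in A and 1.44 to 1.52 FPKM in G. The groups did not overlap in any of the 3, and their log2 changes were 0.24, 0.16 and 0.23. KDM4A had a log2 change of -0.02, the single negative value of the 15 tested KDM genes, which turned positive with equal library sums, while KDM2B turned negative under quantile normalization and under median-ratio factors. With the length trend removed, KDM2B was at -0.14 and KDM1A at -0.03, and the median of the 8 JmjC demethylases of H3K36 and H3K9 was 0.07.

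The log2 change was positive in each of the 5 tested JmjC demethylases of H3K4 and H3K27 (median 0.24). At an unadjusted p under 0.05, 3 were higher in G (60%, against 10.5% of all tested genes), and none with the length trend removed. KDM5A (ENSG00000073614, chromosome 12, 280129 to 389454), an H3K4 demethylase first found as a partner of the retinoblastoma protein, was at 3.99, 3.38 and 3.89 FPKM in A replicates 1 to 3 and at 4.84, 4.56 and 4.67 FPKM in G replicates 1 to 3. All G libraries lay above all A libraries, with a log2 change of 0.26 (SE 0.07, limma adjusted p = 0.200). Its relative KDM5B, often raised in breast cancer, ranged over 6.21 to 8.26 FPKM in A and 8.57 to 9.14 FPKM in G, without overlap (log2 change 0.25). KDM5C, the X-linked relative, ranged over 7.34 to 8.09 FPKM in A and 8.03 to 9.17 FPKM in G, with overlap (log2 change 0.17). The exons of KDM5A share 1.505% of their bases with the opposite-strand gene CCDC77, which was at 2.56 FPKM.

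KDM6A (ENSG00000147050, chromosome X, 44873177 to 45112602), the H3K27 demethylase that works with KMT2C and KMT2D, was at 2.74, 2.71 and 2.49 FPKM in A replicates 1 to 3 and at 3.49, 3.53 and 2.93 FPKM in G replicates 1 to 3. Its groups did not overlap, although G replicate 3 lay nearer to A than to the other G libraries. The log2 change was 0.24 (SE 0.08, limma adjusted p = 0.242). KDM6B (ENSG00000132510, chromosome 17, 7839904 to 7854796), the inducible H3K27 demethylase, was at 10.5, 10.3 and 9.01 FPKM in A replicates 1 to 3 and at 10.8, 11.3 and 9.87 FPKM in G replicates 1 to 3. These groups overlapped, with a log2 change of 0.09 (limma adjusted p = 0.589).

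None of the 9 tested HDAC genes was at an unadjusted p under 0.05, against 17.3% of all tested genes. The class I list of 4 genes had a median log2 change of 0.02, which became -0.03 with quantile normalization. HDAC1 (ENSG00000116478, chromosome 1, 32292083 to 32333635) was at 50.9, 40.8 and 45.0 FPKM in A replicates 1 to 3 and at 52.8, 41.4 and 49.3 FPKM in G replicates 1 to 3. Libraries with the same replicate number stood in the same order in both groups, with replicate 2 lowest, and the log2 change of 0.07 (limma adjusted p = 0.792) changed sign without A replicate 2 or G replicate 1. HDAC3 (ENSG00000171720, chromosome 5, 141620876 to 141636849), the enzyme of the NCoR and SMRT corepressors, was at 17.4, 16.4 and 16.9 FPKM in A replicates 1 to 3 and at 16.2, 16.3 and 15.6 FPKM in G replicates 1 to 3. All G libraries were below all A libraries by a narrow gap, with a log2 change of -0.07 (limma adjusted p = 0.516) that turned to 0.03 with equal library sums. HDAC8 (ENSG00000147099, chromosome X, 72329516 to 72573101) was at 1.00, 0.870 and 1.02 FPKM in A replicates 1 to 3 and at 1.13, 0.913 and 1.07 FPKM in G replicates 1 to 3. Its values lay around the filter of 1 FPKM in both groups and overlapped, with a log2 change of 0.05 that turned negative with quantile normalization and came to -0.16 with the length trend removed and -0.14 with the trends over length and base composition removed.

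The class II and IV list had 5 of 7 genes tested and a median log2 change of 0.02, or -0.0024 with median-ratio factors. HDAC5 (ENSG00000108840, chromosome 17, 44076746 to 44123702), a class IIa enzyme that shuttles between nucleus and cytoplasm, was at 22.4, 21.4 and 21.3 FPKM in A replicates 1 to 3 and at 20.7, 23.6 and 22.8 FPKM in G replicates 1 to 3. The groups overlapped and the log2 change was 0.04 (limma adjusted p = 0.757), or -0.04 with the length trend removed. With the trends over length and base composition both removed it was 0.02. HDAC6 (ENSG00000094631, chromosome X, 48801377 to 48824982), the cytoplasmic deacetylase of tubulin, was at 5.13, 5.24 and 3.83 FPKM in A replicates 1 to 3 and at 5.11, 5.72 and 5.61 FPKM in G replicates 1 to 3. A replicate 3 was low and the other 5 libraries lay close together, with a log2 change of 0.19 (limma adjusted p = 0.444). HDAC7, a class IIa enzyme, ranged over 9.46 to 10.0 FPKM in A and 9.02 to 9.82 FPKM in G, and HDAC11, the class IV enzyme, over 6.95 to 7.99 FPKM in A and 7.31 to 7.98 FPKM in G, both with overlap. The value of HDAC10, a polyamine deacetylase, is uncertain, since 55.8% of its exon bases are shared on the same strand with MAPK12, which was at 2.62 FPKM.

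The 7 sirtuins had a median log2 change of -0.11, negative under each of the 3 other scalings (-0.02 with equal library sums), with 2 of 7 positive (3 with equal sums, 1 with the others). SIRT7 (ENSG00000187531, chromosome 17, 81911939 to 81921323), a nucleolar deacetylase of lysine 18 of histone H3, was at 13.9, 15.0 and 14.9 FPKM in A replicates 1 to 3 and at 12.6, 13.2 and 12.6 FPKM in G replicates 1 to 3. All G libraries were below all A libraries. Its means were 14.6 ± 0.632 FPKM (SD, n = 3) in A and 12.8 ± 0.341 FPKM (SD, n = 3) in G, a log2 change of -0.18 (SE 0.06, limma adjusted p = 0.212), and it was the single enzyme gene lower in G at an unadjusted p under 0.05. Its exons share 1.71% of their bases with MAFG on the same strand, at 6.72 FPKM.

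SIRT3 (ENSG00000142082, chromosome 11, 215030 to 236931), the main deacetylase of the mitochondrial matrix, was at 4.66, 4.13 and 5.26 FPKM in A replicates 1 to 3 and at 3.43, 4.36 and 3.54 FPKM in G replicates 1 to 3. G replicate 2 lay among the A libraries and the other G libraries lay below them. The log2 change of SIRT3 was -0.25, its 95% interval -0.52 to 0.02 (limma adjusted p = 0.313). On the opposite strand, PSMD13, at 17.9 FPKM, covers 6.08% of its exon bases. SIRT1, the nuclear deacetylase of p53 and histones, differed from the rest of its class with a log2 change of 0.21, its A libraries at 3.90, 2.51 and 3.88 FPKM and its G libraries at 4.12, 3.81 and 4.24 FPKM. SIRT6, a chromatin deacetylase of DNA repair and telomeres, ranged over 4.75 to 5.39 FPKM in A and 4.35 to 4.90 FPKM in G. SIRT2, SIRT4, SIRT5 and SIRT6 had overlapping groups and log2 changes from -0.12 to 0.0032.

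A replicate 1, the library with the high FOXM1 level, was the highest of the A libraries in 28 of the 47 enzyme genes (59.6%) and in 11 of the 15 whose G libraries all lay higher (73.3%), against 39.3% of all tested genes. A replicate 2 was the lowest in 26 of 47 (55.3%), against 37.2%. Without A replicate 1, 17 of the 47 enzyme genes were at an unadjusted p under 0.05, 15 of them higher in G. Of all 12787 tested genes, 2712 were. Without A replicate 2 there were 6 enzyme genes, of which 5 were higher, against 1417 of all 12787 tested genes. No enzyme gene passed the adjusted threshold in limma in either case.

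Exon length and base composition moved with the log2 change. Over the 12787 tested genes, the rank correlation of the log2 change with exon length was 0.33 across genes, which are not independent, and over the 47 enzyme genes it was 0.55. With the G and C content of each gene's most abundant transcript it was -0.28 over 12727 genes and -0.49 over 46 enzyme genes. The genes share the same 6 libraries, and the correlations are given as descriptions. When all tested genes were split by exon length into 5 equal groups, their median log2 change was -0.07 in the shortest group, then -0.04, 0.01 and 0.05, and 0.12 in the longest.

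The enzyme genes are long, with a median exon length of 7872 bases against 4447 for all tested genes. Of the 47, 25 were in the longest of the 5 length groups, from 7618 bases, and 22 of those 25 (88%) had a positive log2 change (median 0.21), where 79.7% of all genes of that group did. In the 2 groups between 3641 and 7616 bases, 5 of 10 and 6 of 10 enzyme genes had a positive value, with medians of 0.0092 and 0.0038. With the trend over exon length removed in each library, the median of the 47 was 0.0047 and that of all tested genes -0.0076. Then 25 of 47 were positive. The 4 of 47 at an unadjusted p under 0.05 (SIRT7, SIRT3, HDAC7 and HDAC2) were all lower in G. In either direction, 1821 of all 12787 tested genes were at that p, a larger share than among the 47. The split of those genes by direction was not counted.

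Single genes moved by unequal amounts. KMT2C went from 0.30 to 0.11 on the log2 scale, KMT2A from 0.32 to 0.08, KDM2A from 0.12 to 0.0004 and KDM3A from 0.30 to 0.16. SIRT7 went from -0.18 to -0.23 and SIRT3 from -0.25 to -0.29. The 5 JmjC demethylases of H3K4 and H3K27 stayed positive, with a median of 0.07, while the class I HDAC genes came to a median of -0.12. With the trends over length and base composition both removed, 3 of the 46 enzyme genes with a value were higher in G and 3 lower at an unadjusted p under 0.05. In either direction, 1864 of all 12727 genes with a value were at that p, a slightly larger share than among the 46.

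**Figure D3:**
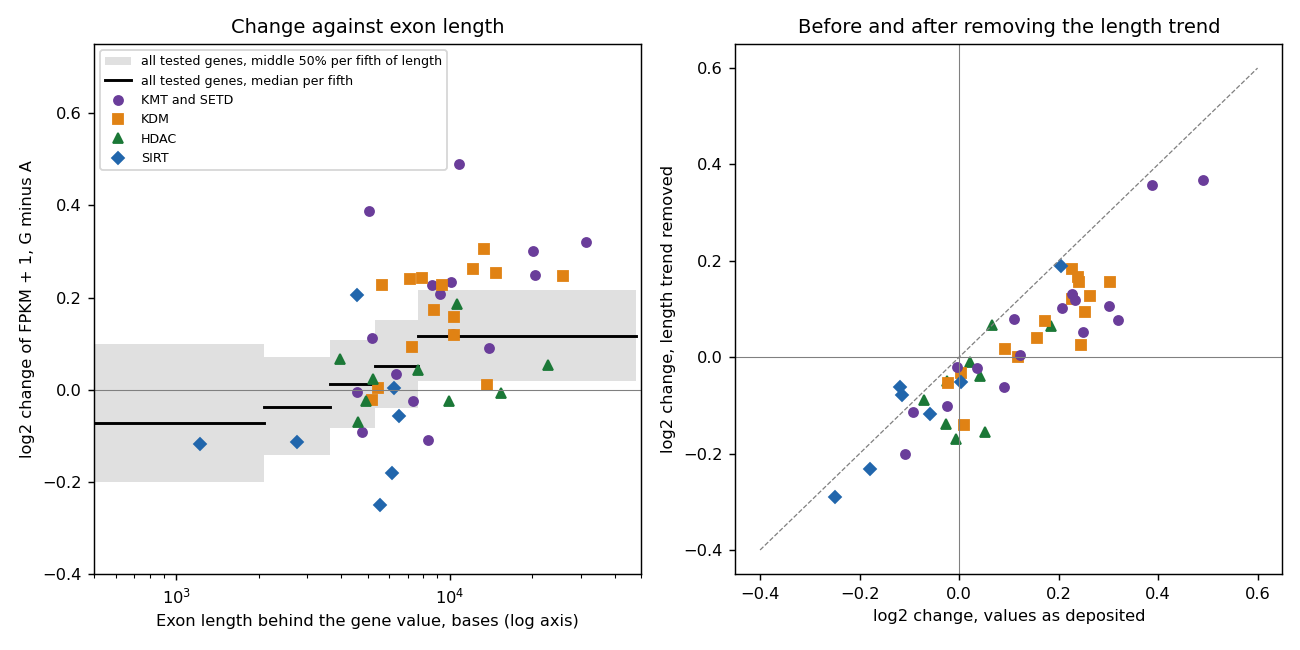
Left, log2 change of FPKM + 1 (G minus A) against exon length in bases (log axis) for the 47 tested enzyme genes, with the median (black) and middle 50% (grey) of all tested genes in each of 5 equal groups of length. Right, the same log2 change before and after removal of the length trend, with the line of equal values dashed; genes with large positive changes such as KMT2C, KMT2A and KDM3A move towards 0, some near 0 such as KDM2B (0.0093 to -0.14) move below it, and SIRT3 and SIRT7 stay lowest.

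Further genes, both partner subunits of these enzymes and other enzymes related or opposed to them, were taken from 7 lists of 118 genes. Of these, 107 were tested. None passed the adjusted threshold in limma, 19 were higher and 1 lower in G at an unadjusted p under 0.05, and 72 had a positive log2 change (median 0.08), against the 10.5%, 6.82% and 55.1% of all tested genes given above. The partner subunits of the KMT2 and SETD1 complexes had no common direction, with 7 of 14 positive and a median of -0.0014. BOD1L1, which protects stalled replication forks with SETD1A, had a log2 change of 0.31 (limma adjusted p = 0.199). MEN1, the menin subunit of the KMT2A and KMT2B complexes, was at 14.8, 14.8 and 11.5 FPKM in A and 10.7, 11.4 and 10.5 FPKM in G, lower in every G library, with a log2 change of -0.30 (limma adjusted p = 0.244).

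In Polycomb repressive complex 2, the writer of the H3K27 methylation that KDM6A and KDM6B remove, 8 of 12 tested genes were positive with a median of 0.12. At an unadjusted p under 0.05, 5 genes (41.7%, against 10.5% of all tested genes) of the complex were higher in G. Its catalytic subunit EZH2 was at 11.1, 10.9 and 11.4 FPKM in A and 14.4, 14.0 and 12.4 FPKM in G. The groups did not overlap, with a log2 change of 0.27 (SE 0.07, limma adjusted p = 0.187) that was 0.26 with the length trend removed. The DNA-binding subunit AEBP2 had a log2 change of 0.21 (limma adjusted p = 0.205).

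Histone methyltransferases outside the name pattern had 12 of 16 tested genes positive and a median of 0.14. Their smallest p belonged to NSD3, an H3K36 methyltransferase, with a log2 change of 0.31 (limma adjusted p = 0.179), and SUV39H1, the enzyme of H3K9 trimethylation in heterochromatin, with 0.40 (limma adjusted p = 0.246). Arginine methyltransferases had 6 of 8 positive and a median of 0.02, with PRMT1 and CARM1 at -0.07 and -0.11, that of PRMT1 turning positive with equal library sums. Of the JmjC proteins outside the name pattern 6 of 12 were positive (median 0.0039), with JMJD1C, the relative of KDM3A, at 0.26 and JMJD6 at -0.20.

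On the side of acetylation, 10 of 12 tested acetyltransferases had a positive log2 change (median 0.15). NCOA3, a steroid receptor coactivator amplified in breast cancer, was at 41.9, 33.4 and 36.2 FPKM in A and 47.8, 46.3 and 45.1 FPKM in G. Its G libraries all lay higher, with a log2 change of 0.32 (limma adjusted p = 0.195). NAA40, which acetylates the N termini of histones H2A and H4, had 0.13. In the corepressor complexes that carry HDAC1, HDAC2 and HDAC3, 23 of 33 tested genes were positive (median 0.10). At an unadjusted p under 0.05, 8 were higher in G (24.2%, against 10.5% of all tested genes). CHD3, an ATPase of NuRD, was at 26.6, 25.5 and 24.1 FPKM in A and 29.9, 32.4 and 29.8 FPKM in G, without overlap (log2 change 0.26, limma adjusted p = 0.182). RCOR1, the CoREST subunit that docks KDM1A to nucleosomes, was at 17.0, 16.2 and 18.0 FPKM in A and 20.5, 19.6 and 20.1 FPKM in G. Its groups did not overlap either (log2 change 0.22, limma adjusted p = 0.187), while KDM1A itself had 0.0045. With the length trend removed, BOD1L1, NSD3, CHD3 and AEBP2 each came to 0.15, JMJD1C to 0.13, RCOR1 to 0.17, NAA40 to 0.10 and NCOA3 to 0.23. SUV39H1 was then at 0.41, MEN1 at -0.31, JMJD6 at -0.25, CARM1 at -0.12 and PRMT1 at -0.09.

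The transcript table lists 788 transcripts of the enzyme genes, of which 138 from 49 genes reached 1 FPKM in at least 3 libraries. None passed the adjusted threshold in limma (44 of 29990 transcripts, 0.147%, did), and 10 were at an unadjusted p under 0.05 (7.81% of all tested transcripts were), 8 higher (5.80%) and 2 lower in G (1.45%), against 4.43% and 3.38%. The groups did not overlap in 19 that were higher (13.8%) and 2 that were lower in G (1.45%), against 9.59% and 6.40%. The log2 change was positive in 99 of 138 (71.7%), against 53.5%, with a median of 0.22 against 0.03 for all tested transcripts.

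The smallest p belonged to a coding transcript of SIRT2 (ENST00000392081, chromosome 19, 38878557 to 38899862), the cytoplasmic tubulin deacetylase. It was at 1.58, 1.91 and 4.73 FPKM in A and at 9.76, 8.48 and 11.0 FPKM in G, a log2 change of 1.61 (limma adjusted p = 0.370). Its G libraries were all higher, yet the SIRT2 gene was at 10.1, 10.6 and 10.9 FPKM in A and 10.1, 11.2 and 10.3 FPKM in G, with overlapping groups. The coding transcript ENST00000249396 and the retained-intron transcript ENST00000462654 also held large shares in some libraries. The first was at 30.2 FPKM in A replicate 2 and at 2.74 to 14.2 FPKM elsewhere. The second was at 0.169 FPKM in A replicate 2 and at 7.96 to 18.5 FPKM elsewhere.

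Of the next 4 transcripts by p, 3 belonged to KMT2E (ENST00000495267, ENST00000478079 and ENST00000311117) and 1 to SETD2 (ENST00000409792), all higher in every G library, with limma adjusted p from 0.517 to 0.580. The long coding transcript of KMT2E, ENST00000311117, was at 4.54, 4.29 and 9.70 FPKM in A and 12.5, 11.7 and 11.3 FPKM in G. Its near equal in length, the nonsense-mediated decay transcript ENST00000334884, was looked at after its values were seen. It held 38.5% and 42.4% of the summed KMT2E transcript level in A replicates 1 and 2 and 0.42% to 1.01% in the other 4 libraries, so 1 A library was divided between them as the G libraries were.

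KDM3A and KDM1A were picked for this after their transcript values were seen. In both, similar long coding transcripts changed places from library to library, and their summed share varied less than the single shares. ENST00000312912 of KDM3A took 33.3% and 32.7% of the gene's summed transcript level in A replicates 2 and 3 and 28.4% in G replicate 2, and at most 0.69% in the other 3 libraries. ENST00000409556 took 31.5% in A replicate 1 and 29.5% in G replicate 1, and ENST00000409064 took 31.9% in G replicate 3. The sum of these 3 was 31.6%, 33.3% and 32.7% in A and 30.2%, 28.4% and 36.04% in G. In FPKM that sum was 7.90, 6.94 and 6.73 in A and 8.68, 7.70 and 10.5 in G. The 3 long coding transcripts of KDM1A summed to 91.5% to 93.8% in every library, although ENST00000465864 alone went from 9.45% in G replicate 1 to 57.4% in A replicate 3.

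**Figure D4:**
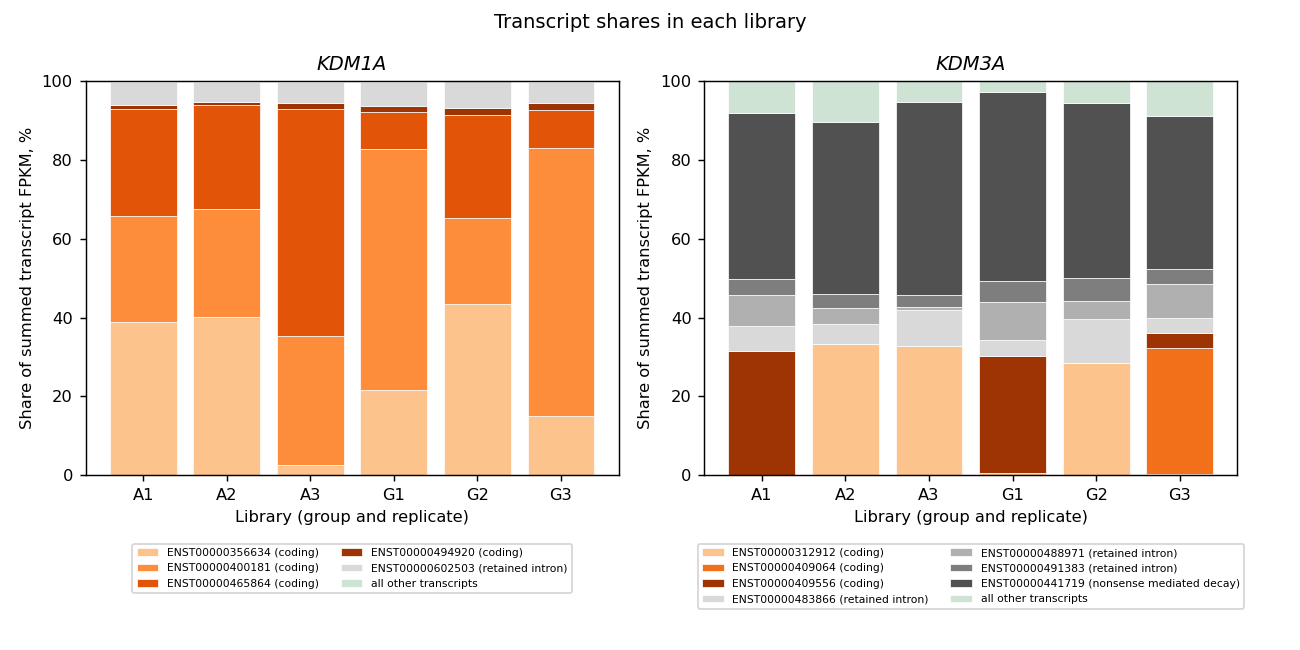
Share of the summed transcript FPKM (%) held by each transcript of KDM1A and KDM3A in the 3 A and 3 G libraries; orange shades are coding transcripts, grey shades are retained-intron and nonsense-mediated decay transcripts and green is the remainder. The coding shades trade places between libraries of one group, while their sum ranges over 91.5% to 93.8% for the 3 long ones of KDM1A and 28.4% to 36.04% for the 3 of KDM3A. Both genes were picked after their values were seen.

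In the authors' deposited table, 3 of the 55 genes have a p under 0.05, against 1.43% of its 58825 genes. The 2 sets are unlike, since 47 of the 55 enzyme genes but 12787 of the 58825 genes reached 1 FPKM in at least 3 libraries. The 3 genes are KMT2A, SETD5 and KMT2C, with deposited log2 fold changes of 0.43, 0.50 and 0.37. The deposited p column holds 0.0168, 0.0384 and 0.0364 for them, from a test that is not named. In the authors' deposited table none of the 55 genes has a q under 0.05, against 0.0918% of all genes, and none is marked as significant, against 0.367%.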

How the data were processed

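Poly(A) RNA of 6 PC9 libraries, 3 per allele, was sequenced as read pairs with a protocol that marks strand, per the labels' protocols. The submitters' processing notes list the tools of the authors as cutadapt 1.9, HISAT2 2.0.4 and StringTie 1.3.4d. These notes name a mouse build, whereas identifiers and positions in the files are human, and positions are given on GRCh38. How the authors set strand, which annotation they used and which test they ran is not given in the sources used here. The deposited values are FPKM per gene and per transcript, with 0.0001 for no estimate, and hold no read counts. Per the file headers, columns of the deposited tables give the fold of G over A, the log2 of that fold, and a p-value with its q-value.

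From these, log2(FPKM + 1) was compared between G and A for genes, and separately transcripts, that reached 1 FPKM in 3 or more of the 6 libraries. Groups were tested in limma 3.58.1 (R 4.3.3) with a trend of variance over intensity, two-sided, with Benjamini-Hochberg adjustment over all 12787 genes or 29990 transcripts tested and a threshold of 0.05. The pseudocount understates changes of low genes. The fit was tested on simulated data. Python 3.11.15 with pandas 2.3.3 handled the tables. Exon length was derived from the deposited values, as the summed transcript levels, each weighted by transcript length, over the gene level. It matched the joined exons of GENCODE release 29 within 1% for 48 of 52 enzyme genes. Shared exon bases came from that release, as did base composition, taken from the most abundant transcript of each gene. Promoter windows came from RefSeq (GRCh38.p14), which matched 51 of the 55 genes.

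The 55 genes and all lists were chosen with earlier results of these data known. Values per library are given for the 2 genes with the smallest unadjusted p and the 1 with the highest mean in each of 9 role lists, and for genes with groups apart and an unadjusted p under 0.01. For each of 7 companion lists the 2 genes with the smallest p are named, and for transcripts the 5 with the smallest p. KDM3B, SETD6, SIRT1 and other genes with single values were picked after their values were seen. Alternatives changed the pseudocount, filter, scaling, variance model, weights, replicate block and libraries, and 2 that remove trends over exon length and base composition were added after seeing the data.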

Additional observations from a re-analysis of the deposited data

How the results depend on the processing

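No enzyme gene and no enzyme transcript was called by limma under any of the 18 gene-level or 10 transcript-level alternatives, and the lowest adjusted p of an enzyme gene was 0.0858, with equal library sums. Of all genes, 14 were called as reported, 1 when low values were not filtered, 9 with median-ratio factors, 6 with quantile normalization, 4 without an intensity trend and 6 with the length trend removed. Leaving out 1 library gave 5 to 20 genes. The split of higher against lower calls was 4 to 10, and 7 to 8 with equal sums, 1 to 8 with median-ratio factors, 2 to 4 with quantile normalization and 12 to 8 without A replicate 1. The median log2 change of the enzyme genes moved from 0.09 to 0.19 with equal sums (all genes 0.11), 0.0047 with the length trend removed and 0.0398 with the trends over length and base composition removed. Leaving out 1 library gave 0.07 to 0.14. The count of all transcripts called moved from 44 to 23 at a pseudocount of 0.1, 0 at 0.01 and 2 with 1 FPKM in all libraries. Leaving out 1 library gave 7 to 37. Positive changes went from 7 of 14 to 4 in the COMPASS list with the length trend removed, and from 6 of 8 to 3 in the arginine methyltransferase list with both trends removed and without G replicate 1.

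With the replicate number as a block, 0 genes and 0 transcripts were called, and 2148 genes had an unadjusted p under 0.05. Whether the number marks a pairing was not settled. Deviations of same-numbered libraries from their group means correlated only weakly across genes, at 0.07, 0.02 and 0.04. All libraries but G replicate 2 correlated best with their own number, and that library was near a tie (0.0154 with A replicate 2, 0.0155 with A replicate 3). Correlations this small among 3 libraries per group cannot decide it. Under the block, 10 enzyme genes were at an unadjusted p under 0.05, 9 of them higher in G.

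Of the 22 enzyme genes given by library, HDAC1, HDAC3, HDAC5, HDAC8, KDM1A and KMT5C changed sign under at least 1 alternative, and the other 16 under none. The 3 libraries per group limit these comparisons, and the tables hold no read counts from which counting error could be set.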

Other observations

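The 12 non-coding genes and pseudogenes that fit the name pattern were mostly low. Only KMT2E-AS1, antisense to KMT2E, reached 1 FPKM in at least 3 libraries. It was at 3.67, 3.07 and 2.93 FPKM in A and 3.60, 4.35 and 3.24 FPKM in G, with overlapping groups. KDM7A-DT, which starts beside KDM7A on the other strand, was at 0.968, 0.764 and 0.784 FPKM in A and 0.387, 0.554 and 0.490 FPKM in G, below the filter and lower in every G library. In the authors' deposited table it has p = 0.0411 and q = 0.902. KDM7A itself was at 1.304, 0.945 and 1.14 FPKM in A and 1.52, 1.497 and 1.44 FPKM in G, higher in every G library.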
